A study of Mus musculus with 18 samples.

Results

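The Toll-like receptors and their co-receptor CD14 were followed in mouse heart muscle over the first 72 h of a myocardial infarction. The set held 10 genes taken by name from a count table of 30583 genes, by a rule that sets no condition on their values. They were the receptor genes Tlr1, Tlr2, Tlr3, Tlr4, Tlr6, Tlr7, Tlr8, Tlr9 and Tlr13 and the co-receptor gene Cd14. All 10 passed the filter on low counts and were among the 16311 genes tested. RNA came from the left ventricle of 18 male C57BL/6JR mice aged 12 weeks, with 1 poly(A)-selected library from each mouse and 3 mice in each of 6 groups. In 5 groups the left anterior descending coronary artery was tied, and the tissue was taken after 10 min or after 1 h, 6 h, 24 h or 72 h. Sham mice were operated on likewise, but their suture was left untied. All mice were operated on under sodium pentobarbital and were given isoflurane before they were killed. The labels name no altered allele. They give the sham group the single time 0 h, so the course after the operation alone was not measured.

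Toll-like receptors are sensors of the innate immune system that recognise microbial molecules and also molecules released by injured tissue. TLR1, TLR2, TLR4 and TLR6 sit mainly at the cell surface and are known for lipoproteins and lipopolysaccharide, with CD14 handing ligands to TLR2 and TLR4, while TLR3, TLR7, TLR8, TLR9 and TLR13 sit in endosomes and are known for nucleic acids. In the heart they are found on resident and recruited leukocytes, and some also on endothelial cells, fibroblasts and cardiomyocytes, and signalling through MyD88 or TRIF leads to inflammatory cytokines and interferons.

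Sequencing gave 18.2 to 25.1 M counts in genes per library. The labels name cardiomyocytes as well as myocardial tissue, but describe no separation of cells. In the sham group the 5 cardiomyocyte markers (Myh6, Tnnt2, Tnni3, Ryr2, Actc1) summed to 46190 to 50250 CPM (counts relative to the library's total, scaled by TMM factors), and endothelial and fibroblast markers were present as well, at 1028 to 1138 and 565 to 577 CPM over 4 genes each. A pair of libraries stood apart. Replicate 1 of the 6 h group carried the atrial genes Myl7, Sln and Myl4, whose sum was 151 CPM there and at most 3.41 CPM in any other library. The same library had the highest sum of 7 neutrophil markers (Csf3r, Cxcr2, Retnlg, Mmp8, Mmp9, Il1r2, Trem1) of its group, 262 CPM against 82.1 and 48.2 CPM in replicates 2 and 3. Replicate 3 of the 24 h group had a neutrophil marker sum of 396 CPM, against 89.9 and 29.7 CPM in replicates 1 and 2. Results that rest on these libraries are given with and without them. Leaving out both keeps 2 libraries in each of these groups and was chosen after the data were seen.

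All 10 transcripts were higher at 72 h than in sham, but by different amounts and from different times on. A gene was called where its adjusted p (edgeR quasi-likelihood test, Benjamini-Hochberg over all genes tested) was under 0.05. None of the 10 genes was called against sham at 10 min, where 0.0736% of all genes were called and 0.0307% were called higher, or at 1 h, where 0.294% and 0.288% were. At an unadjusted p under 0.05 there were 0 of the 10 at 10 min and 1, Tlr7, at 1 h, and DESeq2 and limma called none at either time. At 6 h 7 of the 10 were called, all higher, where 28.4% of all genes were called and 16.3% were called higher. At 24 h 9 were called, all higher, against 43.8% of all genes and 23.7% higher, and at 72 h all 10 were called higher, against 66.4% and 34.2%. An F test over all 6 groups called each of the 10, and 78.4% of all genes. The comparisons with sham share the 3 sham libraries. The split of all genes by direction depended on the scaling. Of the genes called, 57.2%, 54% and 51.4% were higher at 6 h, 24 h and 72 h with TMM factors, and 40.6%, 75.5% and 79.9% with library totals.

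The median log2 fold change of the 10 genes against sham was 0.15 at 10 min, 0.12 at 1 h, 1.40 at 6 h, 2.06 at 24 h and 3.66 at 72 h, while that of all genes tested stayed between -0.01 and 0.03. TMM scaling holds the median of all genes near 0. With library totals it was -0.12, 0.20 and 0.61 at 6 h, 24 h and 72 h. The values of the ligated group lay wholly above those of sham for 1 gene at 10 min, 2 at 1 h, 6 at 6 h, 9 at 24 h and 10 at 72 h. The share of all genes that lay so is not given here, so these counts have no background beside them. The count at 6 h was the least steady. It was 2 without replicate 1 of the 6 h group or without sham replicate 1, 4 without sham replicate 2 or 3, and 5 without both libraries that stood apart. Without both, the counts at 24 h and 72 h were 9 and 10. All genes called at 6 h fell in the same refits, from 4639 to 2926 without 6 h replicate 1 and 3921 without both. Without sham replicate 1, 2 or 3 they numbered 3213, 3579 and 3408. In whole tissue more cells of a type and more RNA per cell cannot be told apart, and the level of each gene below is subject to this.

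**Figure D1:**
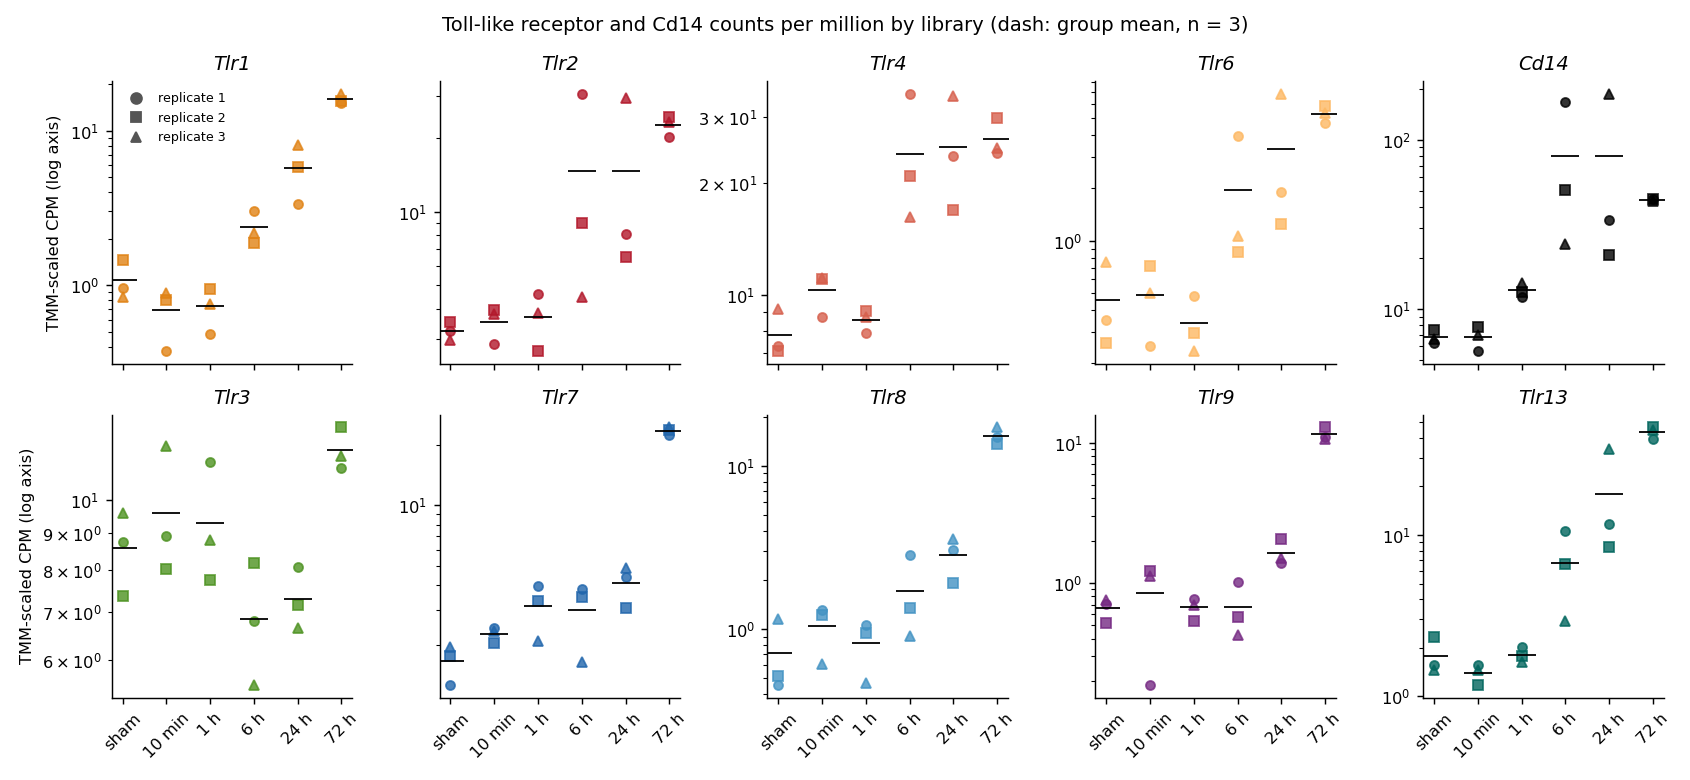
TMM-scaled CPM (log axis) of the 10 genes in each of the 18 libraries, by group. Symbols mark the replicate and dashes the group mean (n = 3). All 72 h libraries lie above all sham libraries for each of the 10 genes, and Cd14 reaches 166 and 186 CPM in 1 library each of the 6 h and 24 h groups.

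Between consecutive times, none of the 10 was called between 10 min and 1 h, where 0.307% of all genes were and 0.251% were called higher, with 0 of the 10 at an unadjusted p under 0.05 and none called by DESeq2 or limma. From 1 h to 6 h 6 were called higher, against 24.5% of all genes called and 14.5% called higher. From 6 h to 24 h 3 were called higher, Tlr1, Tlr9 and Tlr13, against 27.8% and 14.2%. From 24 h to 72 h 6 were called higher, Tlr1, Tlr3, Tlr7, Tlr8, Tlr9 and Tlr13, against 50.5% and 24.4%. Over the longer step from 6 h to 72 h 7 were called higher, against 63% and 31.3%, the exceptions being Tlr2, Tlr4 and Cd14. The count from 1 h to 6 h was 2 without 6 h replicate 1 or without any one of the 3 libraries of the 1 h group. All genes called there fell too, from 4003 to 2481 without 6 h replicate 1. Without 1 h replicate 1, 2 or 3 they numbered 2976, 2664 and 2947. The count from 6 h to 24 h was 5 without 6 h replicate 1, 1 without 6 h replicate 2 or 3, and 2 without 24 h replicate 2 or 3. All genes called there were 4541 with all libraries and 4064, 4031 and 3655 without 6 h replicate 1, 2 and 3. Without 24 h replicate 2 and 3 they were 3607 and 4089. The count from 24 h to 72 h was 9 without both libraries that stood apart, all but Tlr4, where all genes called were 8852 against 8231 with all libraries.

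To compare genes with each other, CPM was divided by transcript length, taken from the deposited FPKM values and counts. On this scale Cd14 was the highest of the 10 in every group, at 4.33 ± 0.39 CPM per kb (SD, n = 3) in sham. Tlr3 followed at 1.65 ± 0.22, then Tlr4 at 1.41 ± 0.21 and Tlr2 at 1.08 ± 0.09 CPM per kb. The libraries of Tlr3 and Tlr4 overlapped, while Cd14 stood apart from Tlr3 and Tlr2 from Tlr4. The other 6 receptors ranged in sham from 0.438 ± 0.116 CPM per kb for Tlr13 down to 0.122 ± 0.071 for Tlr6, and each overlapped its neighbour in the order. By 72 h the order below Cd14 had changed. Tlr13 followed at 10.7 ± 0.88 CPM per kb, then Tlr2 at 7.53 ± 0.71 and Tlr7 at 5.78 ± 0.27, each apart from its neighbours. Tlr1, Tlr4 and Tlr8 came next at 4.76 ± 0.35, 4.71 ± 0.56 and 4.26 ± 0.50 CPM per kb, with overlapping libraries. Tlr9 stood at 3.30 ± 0.35, and Tlr3, the highest receptor in sham, was now at 2.25 ± 0.15 CPM per kb, ahead only of Tlr6 at 1.42 ± 0.15.

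Cd14 encodes the lipid-anchored co-receptor that presents lipopolysaccharide to TLR4 and lipopeptides to TLR2. It lies at chr18:36725067-36726798 on the minus strand (mm10). Its level was 6.27, 7.47 and 6.66 CPM in the sham libraries and 5.60, 7.77 and 7.04 CPM at 10 min. At 1 h it was 11.7, 12.6 and 14.2 CPM, above every sham and 10 min library. The 1 h group therefore did not overlap with sham, but the fold change of 0.92 ± 0.82 (log2 ± SE) was not called, with an edgeR adjusted p of 0.990. Its spread came from all 6 groups. Fitted on the 6 libraries of sham and 1 h alone, the same log2 fold change had an SE of 0.12 and an edgeR adjusted p of 0.000531.

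At 6 h Cd14 was 166, 50.1 and 24.3 CPM, and at 24 h 33.5, 20.9 and 186 CPM. Every library of both groups was above all sham, 10 min and 1 h libraries, but replicates of one group differed several-fold. The log2 fold change against sham was 3.55 ± 0.83 at 6 h (edgeR adjusted p = 0.00658) and 3.55 ± 0.82 at 24 h (edgeR adjusted p = 0.00387). The highest library of each group was the one with the highest neutrophil marker sum. Without both of these libraries the values were 2.45 ± 0.26 and 2 ± 0.26, still called with edgeR adjusted p of 8.63e-06 and 4.4e-05.

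At 72 h Cd14 was 44.5, 44.7 and 43.2 CPM, close to one another unlike at 6 h and 24 h, and 2.70 ± 0.81 above sham (log2 ± SE, edgeR adjusted p = 0.00964). Cd14 was the only member whose group mean was highest before 72 h, at 80.2 CPM at 24 h and 80.1 CPM at 6 h against 44.1 CPM at 72 h. The step from 24 h to 72 h was not called at -0.85 ± 0.72 (edgeR adjusted p = 0.349). It turned to 0.69 ± 0.24 and was called higher without both libraries that stood apart (edgeR adjusted p = 0.0254), where the 6 h and 24 h means were 37.2 and 27.2 CPM.

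Tlr2, the receptor for bacterial lipoproteins that pairs with TLR1 or TLR6, lies at chr3:83836272-83841767 on the minus strand. It was 3.24, 3.53 and 2.98 CPM in sham, and did not differ by the test at 10 min or 1 h. At 6 h it was 30.5, 9.0 and 4.47 CPM, at 24 h 8.11, 6.51 and 29.3 CPM, and at 72 h 20.3, 24.5 and 23.4 CPM. All of these libraries lay above sham, and the highest 6 h and 24 h libraries were again replicates 1 and 3. The log2 fold change against sham was 2.16 ± 0.67 at both 6 h and 24 h (edgeR adjusted p = 0.0283 and 0.0185) and 2.81 ± 0.67 at 72 h (edgeR adjusted p = 0.00209). Leaving out 6 h replicate 1 alone gave 1.06 ± 0.55 at 6 h, which was not called (edgeR adjusted p = 0.21), and leaving out 24 h replicate 3 alone gave 1.17 ± 0.60 at 24 h, not called either (edgeR adjusted p = 0.157). The 6 h call was also lost without any one of the 3 sham libraries, and the 24 h call without sham replicate 1 or 3. Without both libraries that stood apart the fit gave 1.06 ± 0.25 at 6 h and 1.17 ± 0.24 at 24 h, both called (edgeR adjusted p = 0.00392 and 0.00101), and a step from 24 h to 72 h of 1.63 ± 0.22 that was called as well (edgeR adjusted p = 5.1e-06), against 0.65 ± 0.59 with all libraries (edgeR adjusted p = 0.39). That fit, chosen after the data were seen, left out the highest library of each group and kept 2 in each. Its SE was smaller, although the changes against sham were smaller too.

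Tlr1 and Tlr6 encode the partners with which TLR2 forms receptors for triacylated and diacylated lipopeptides. They are neighbouring genes of similar sequence at chr5:64924679-64933563 and chr5:64952031-64960097, both on the minus strand, and how reads shared between them were counted is not given in the sources used here, so their split is uncertain. Tlr1 was 0.961, 1.45 and 0.844 CPM in sham, 3.04, 1.87 and 2.18 CPM at 6 h, 3.37, 5.80 and 8.10 CPM at 24 h, and 15.0, 15.6 and 17.3 CPM at 72 h. From 6 h on each group lay wholly above the one before it. Against sham the log2 fold change was 1.12 ± 0.34 at 6 h (edgeR adjusted p = 0.0195), 2.40 ± 0.32 at 24 h (edgeR adjusted p = 1.98e-05) and 3.88 ± 0.32 at 72 h (edgeR adjusted p = 7.02e-09). Each step was called, by 1.70 ± 0.37 from 1 h to 6 h, 1.29 ± 0.29 from 6 h to 24 h and 1.47 ± 0.27 from 24 h to 72 h. The call at 6 h against sham was lost without 6 h replicate 1 or without sham replicate 1 or 3.

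Tlr6 was the lowest receptor per length in sham, with 5 to 17 counts a library. It was 0.354, 0.259 and 0.755 CPM in sham, 3.93, 0.861 and 1.07 CPM at 6 h, 1.90, 1.24 and 6.86 CPM at 24 h, and 4.70, 5.85 and 5.35 CPM at 72 h. The libraries that stood apart were again highest in their groups, and one of them, at 24 h, exceeded every 72 h library. The log2 fold change against sham was 2.03 ± 0.73 at 6 h, at the threshold (edgeR adjusted p = 0.0499), 2.79 ± 0.70 at 24 h (edgeR adjusted p = 0.0048) and 3.49 ± 0.69 at 72 h (edgeR adjusted p = 0.00033). Without both libraries it was 1.03 ± 0.44 at 6 h, not called (edgeR adjusted p = 0.0952), and 1.73 ± 0.39 at 24 h, called (edgeR adjusted p = 0.00192). When each of the 18 libraries was dropped in turn, 14 of the refits no longer called the 6 h difference. The step from 24 h to 72 h, 0.70 ± 0.55 with all libraries (edgeR adjusted p = 0.316), was 1.76 ± 0.32 without both (edgeR adjusted p = 8.76e-05).

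Tlr4, the lipopolysaccharide receptor, lies at chr4:66827584-66930284 on the plus strand. It was 7.28, 7.05 and 9.15 CPM in sham, 34.6, 20.8 and 16.1 CPM at 6 h, 23.6, 16.9 and 34.3 CPM at 24 h, and 24.0, 29.8 and 24.8 CPM at 72 h. The 3 late groups overlapped with one another and lay wholly above sham. Against sham the log2 fold change was 1.60 ± 0.26 at 6 h (edgeR adjusted p = 0.000408), 1.66 ± 0.26 at 24 h (edgeR adjusted p = 0.000158) and 1.74 ± 0.26 at 72 h (edgeR adjusted p = 2.14e-05). After a step of 1.47 ± 0.26 from 1 h to 6 h (edgeR adjusted p = 0.00101), no further step was called: 0.06 ± 0.25 from 6 h to 24 h and 0.08 ± 0.25 from 24 h to 72 h (edgeR adjusted p = 0.881 and 0.82). Tlr4 and Cd14 were the only members whose 6 h call held whichever of the 18 libraries was dropped.

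**Figure D2:**
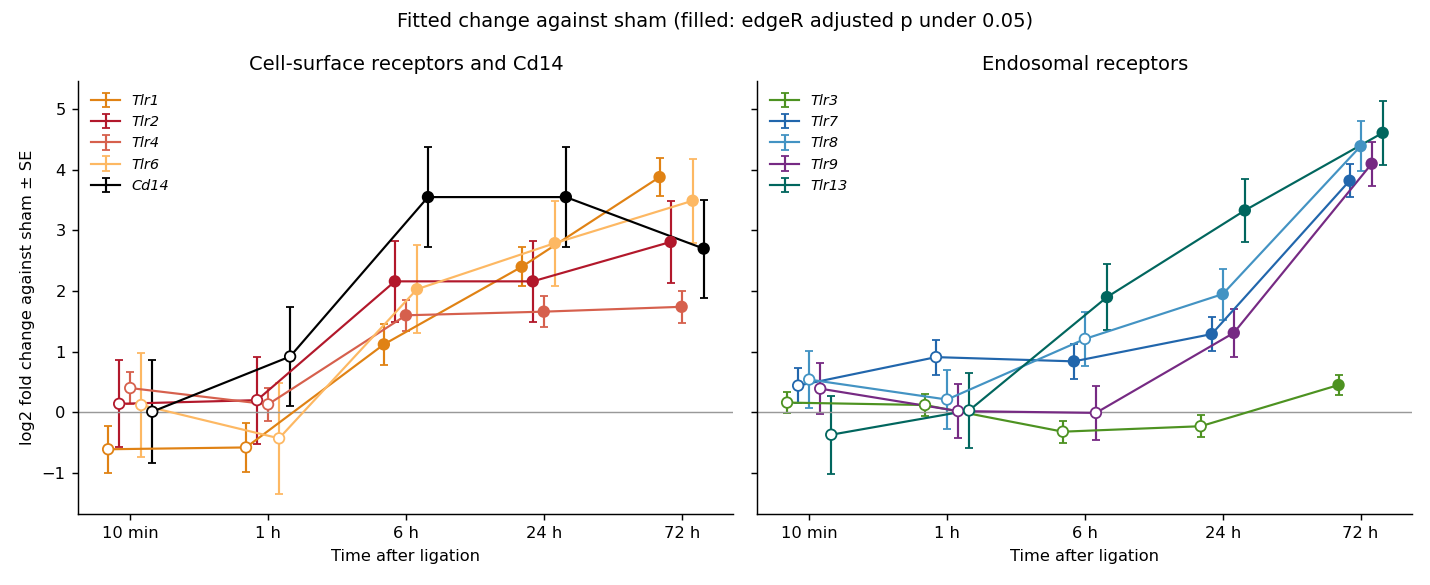
Fitted log2 fold change against sham (edgeR, ± SE) of the surface receptors with Cd14 and of the endosomal receptors at each time after ligation. Filled points were called. Tlr4 is nearly level from 6 h to 72 h, at 1.60 to 1.74, while Tlr7, Tlr8 and Tlr9 reach 3.82 to 4.39 at 72 h and Tlr3 0.45.

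At 6 h the 4 surface receptors were all called, and of the 5 endosomal receptors Tlr7 and Tlr13 were. The difference between these counts was not tested, and it rests on values near the threshold (edgeR adjusted p = 0.0499 for Tlr6 and 0.0508 for Tlr8). Without 6 h replicate 1, Tlr4 was the only receptor still called at 6 h. Promoter sequences are shown for Tlr8, Tlr9 and Tlr13, which had the largest log2 fold changes at 72 h, and for Tlr3, which had the smallest. They are from RefSeq (GRCm38.p6), span 250 bases before to 50 after the annotated start and are written 5′ to 3′ on the gene's strand. Of the 10 genes, 7 had at least 1 entry in the table, 9 entries in all. Capitals mark matches, on either strand, to GAGGAA (the core of the PU-box bound by PU.1), TTGCNNAA (C/EBP), GGANNTTCC (NF-kB core), TGANTCA (AP-1) and GAAANNGAA (interferon response), and no 2 matches overlap in these 4.
Tlr3, chr8:45410331-45410630, minus strand: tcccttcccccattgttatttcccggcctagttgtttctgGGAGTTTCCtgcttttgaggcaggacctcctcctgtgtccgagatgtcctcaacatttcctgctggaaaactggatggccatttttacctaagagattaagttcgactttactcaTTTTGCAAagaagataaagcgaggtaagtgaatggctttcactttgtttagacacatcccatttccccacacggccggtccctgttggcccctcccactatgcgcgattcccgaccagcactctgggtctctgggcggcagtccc
Tlr8, chrX:167264280-167264579, minus strand: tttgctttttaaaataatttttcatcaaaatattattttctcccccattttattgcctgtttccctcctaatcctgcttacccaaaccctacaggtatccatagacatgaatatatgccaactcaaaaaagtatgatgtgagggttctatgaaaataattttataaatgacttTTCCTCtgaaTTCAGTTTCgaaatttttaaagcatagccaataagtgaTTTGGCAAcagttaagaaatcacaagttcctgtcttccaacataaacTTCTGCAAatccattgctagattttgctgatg
Tlr9, chr9:106222348-106222647, plus strand: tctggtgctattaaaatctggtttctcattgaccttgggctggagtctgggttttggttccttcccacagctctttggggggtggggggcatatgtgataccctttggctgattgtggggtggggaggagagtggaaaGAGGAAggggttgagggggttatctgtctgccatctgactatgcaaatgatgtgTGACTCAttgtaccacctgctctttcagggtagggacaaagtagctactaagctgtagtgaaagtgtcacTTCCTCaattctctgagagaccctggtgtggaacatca
Tlr13, chrX:106143025-106143324, plus strand: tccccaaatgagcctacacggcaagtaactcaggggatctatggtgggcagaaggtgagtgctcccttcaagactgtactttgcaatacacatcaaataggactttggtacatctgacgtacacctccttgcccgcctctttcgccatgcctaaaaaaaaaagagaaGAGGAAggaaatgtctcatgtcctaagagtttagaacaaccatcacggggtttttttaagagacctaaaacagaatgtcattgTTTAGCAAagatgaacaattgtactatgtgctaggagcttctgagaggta

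The letters GAGGAA were present in the windows of Tlr8, Tlr9 (at 2 places) and Tlr13, but not of Tlr3, and 28.3% of the 32851 promoters in the table hold them. Of the members not shown, Tlr1 held them in its window at chr5:64933509-64933808 but not in its other window. The windows of Tlr2 and Tlr6 did not hold them. Of the 4 shown, TTGCNNAA was matched in Tlr3, Tlr8 and Tlr13, against 10.8% of promoters. GGANNTTCC was matched in Tlr3 alone of the 4, against 4.26%, TGANTCA in Tlr9 alone, against 7.81%, and GAAANNGAA in Tlr8 alone, against 8.56%. These are matches of letters in short windows and say nothing on binding.

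Tlr7, at chrX:167304929-167330558 on the minus strand, encodes a sensor of single-stranded RNA. It was 1.26, 1.76 and 1.96 CPM in sham, 2.43, 2.06 and 2.35 CPM at 10 min, and 3.96, 3.32 and 2.1 CPM at 1 h. Every library at these early times was above every sham library, but neither difference was called. The 1 h log2 fold change was 0.91 ± 0.29, with an unadjusted edgeR p of 0.00491 and an adjusted p of 0.453. At 6 h Tlr7 was 3.81, 3.49 and 1.65 CPM, which overlapped with sham, although the log2 fold change of 0.84 ± 0.29 was called (edgeR adjusted p = 0.0359). That call was lost without 6 h replicate 1 or 2 or sham replicate 1 or 2, and the value was 0.64 ± 0.30 without both libraries that stood apart (edgeR adjusted p = 0.137).

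At 24 h Tlr7 was 4.40, 3.08 and 4.85 CPM, and at 72 h 22.4, 23.9 and 24.5 CPM. Most of its change lay between these times. It was 1.29 ± 0.28 above sham at 24 h (log2 ± SE, edgeR adjusted p = 0.0012) and 3.82 ± 0.27 at 72 h (edgeR adjusted p = 1.36e-09), a step of 2.53 ± 0.25 (edgeR adjusted p = 1.63e-07).

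Tlr8, a relative of Tlr7 beside it on the X chromosome (chrX:167242696-167264329, minus strand), is also known for single-stranded RNA. It was 0.455, 0.519 and 1.16 CPM in sham, 2.86, 1.34 and 0.905 CPM at 6 h, 3.06, 1.91 and 3.56 CPM at 24 h, and 15.1, 13.6 and 17.2 CPM at 72 h. The 6 h group overlapped with sham and the later groups lay above it. The log2 fold change against sham was 1.21 ± 0.45 at 6 h, just outside the threshold (edgeR adjusted p = 0.0508, DESeq2 adjusted p = 0.0186), 1.95 ± 0.42 at 24 h (edgeR adjusted p = 0.00133) and 4.39 ± 0.41 at 72 h (edgeR adjusted p = 4.37e-08). The step from 24 h to 72 h was 2.44 ± 0.35 (edgeR adjusted p = 1.53e-05).

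Tlr9, the sensor of unmethylated CpG DNA, lies at chr9:106222598-106226883 on the plus strand. It was 0.708, 0.519 and 0.755 CPM in sham and 1.01, 0.574 and 0.426 CPM at 6 h, from 8 to 17 counts a library in both groups together. The 2 groups overlapped and the log2 fold change was -0.01 ± 0.44 (edgeR adjusted p = 0.994). Tlr9 was then 1.38, 2.05 and 1.5 CPM at 24 h and 11.04, 12.8 and 10.5 CPM at 72 h, in both cases wholly above all earlier groups. The steps were 1.32 ± 0.39 from 6 h to 24 h (edgeR adjusted p = 0.018) and 2.79 ± 0.32 from 24 h to 72 h (edgeR adjusted p = 1.26e-06), the largest step of a member between neighbouring times. The first of these calls was lost without 6 h replicate 2 or 3 or 24 h replicate 2, with an edgeR adjusted p of up to 0.0803. Against sham it was 1.31 ± 0.39 at 24 h (edgeR adjusted p = 0.0105) and 4.10 ± 0.36 at 72 h (edgeR adjusted p = 1.77e-08).

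Tlr13, at chrX:106143204-106160493 on the plus strand, recognises bacterial ribosomal RNA and is found in mice but not in humans. It was 1.57, 2.33 and 1.47 CPM in sham, 10.6, 6.60 and 2.93 CPM at 6 h, 11.8, 8.45 and 33.9 CPM at 24 h, and 39.6, 46.4 and 44.9 CPM at 72 h. All 6 h libraries were above sham, and replicate 3 stood far above the others at 24 h. The log2 fold change against sham was 1.90 ± 0.54 at 6 h (edgeR adjusted p = 0.0174), 3.33 ± 0.52 at 24 h (edgeR adjusted p = 0.000227) and 4.61 ± 0.53 at 72 h (edgeR adjusted p = 2.56e-06), the largest of the 10. The 6 h call was lost without 6 h replicate 1 (1.43 ± 0.56, edgeR adjusted p = 0.0986) and without sham replicate 1 or 3. Without both libraries that stood apart it was 1.44 ± 0.28 at 6 h and 2.50 ± 0.26 at 24 h, both called (edgeR adjusted p = 0.00116 and 8.96e-07). The step from 6 h to 24 h was 1.42 ± 0.46 (edgeR adjusted p = 0.0319), between overlapping groups, and was 1.07 ± 0.25 without both (edgeR adjusted p = 0.00651) and 0.60 ± 0.32, not called, without 24 h replicate 3 alone (edgeR adjusted p = 0.191). That call was also lost without 6 h replicate 2 or 3. The step from 24 h to 72 h was 1.29 ± 0.43 (edgeR adjusted p = 0.0214) and lost its call without 24 h replicate 1 or 2 or 72 h replicate 2 or 3, with an edgeR adjusted p of up to 0.0984, while it was 2.11 ± 0.22 without both libraries that stood apart (edgeR adjusted p = 2.46e-07).

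Tlr3, the sensor of double-stranded RNA that signals through TRIF, did not share this course. It lies at chr8:45395665-45411080 on the minus strand. Within it, near its 5′ end and on the other strand, lies the gene Gm45542 (chr8:45410063-45410760 in GENCODE M21), which has no entry in the count table. Whether counting used the strand is not given in the sources used here, and without strand reads of the 2 cannot be told apart. Tlr3 was 8.75, 7.36 and 9.60 CPM in sham, 6.79, 8.18 and 5.54 CPM at 6 h, 8.07, 7.15 and 6.65 CPM at 24 h, and 11.1, 12.6 and 11.5 CPM at 72 h. The 6 h and 24 h groups overlapped with sham, and only the 72 h group lay above it. The log2 fold changes of -0.32 ± 0.18 at 6 h and -0.23 ± 0.18 at 24 h were not called (edgeR adjusted p = 0.19 and 0.301).

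At 72 h Tlr3 was 0.45 ± 0.17 above sham (log2 ± SE, edgeR adjusted p = 0.0284), the smallest change of the 10. That call was lost without sham replicate 1 or 2 or without 72 h replicate 2 or 3. It also depended in size on the scaling. With library totals in place of TMM factors it was 1.04 ± 0.19, but there the median of all genes stood at 0.61. The step from 24 h to 72 h was 0.69 ± 0.17 (edgeR adjusted p = 0.00302).

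Per length, the surface receptors (Tlr1, Tlr2, Tlr4, Tlr6) made up 50.5 ± 1.5% (SD, n = 3) of the summed level of the 9 receptors in sham, and the endosomal receptors the rest. At 6 h the surface share was 68.4 ± 6.7%, from 62.1 to 75.5%, and at 24 h it was 58.5 ± 3.4%, from 55.6 to 62.3%. Each library of both groups was above the highest sham library, at 52.1%. At 10 min the surface share ran from 46.5 to 55.2%, close to the lowest 24 h library, and at 1 h from 43.7 to 51.7%. At 72 h the surface share was 41.2 ± 0.78%, from 40.5 to 42.1%, below every other library. In CPM per kb, the surface sum went from 2.93 ± 0.16 in sham to 10.4 ± 6.9 at 6 h and 18.4 ± 1.5 at 72 h, and the endosomal sum from 2.88 ± 0.30 to 4.36 ± 1.7 and 26.3 ± 1.4. The 6 h surface sums were 18.3, 7.52 and 5.33 CPM per kb in replicates 1, 2 and 3. Without replicate 1 their mean was 6.42 CPM per kb and the surface share 64.8%. At 24 h, without replicate 3, the surface share was 56.7%. Shares moved within these sums although every receptor was higher at 72 h than in sham. Tlr3 went from 28.3 ± 3.0% of the 9 in sham to 5.04 ± 0.19% at 72 h and Tlr4 from 24.2 ± 1.8% to 10.5 ± 0.86%, while Tlr13 went from 7.60 ± 2.3% to 23.9 ± 0.47% and Tlr7 from 6.96 ± 1.1% to 12.9 ± 0.39%. These shares are descriptions and were not tested.

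**Figure D3:**
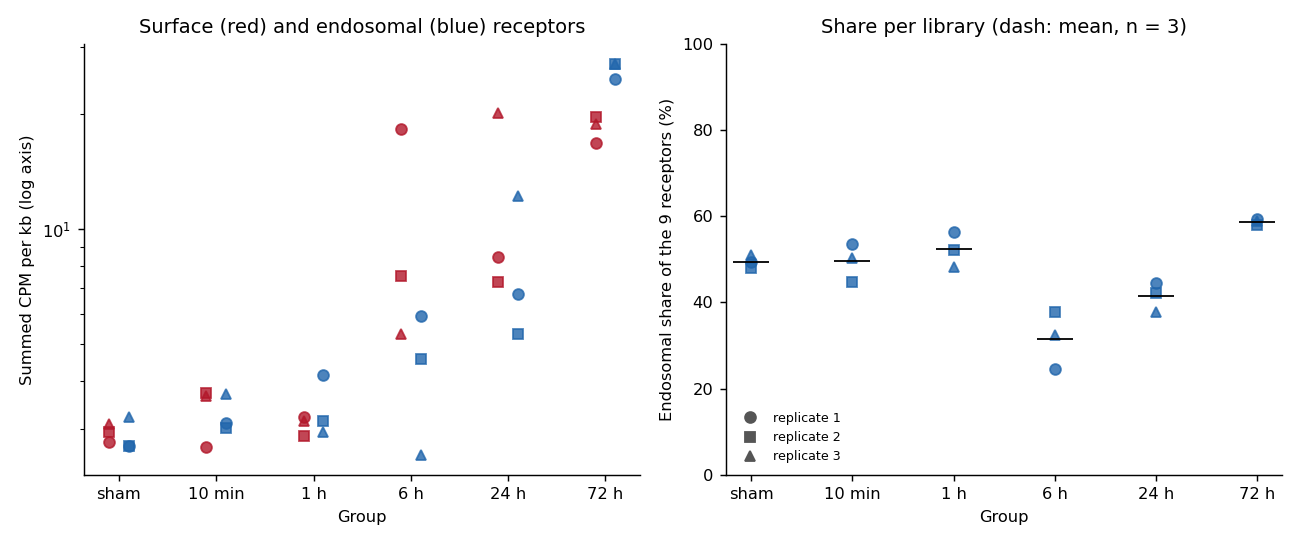
Left, summed CPM per kb (log axis) of the 4 surface and 5 endosomal receptors in each library. Right, endosomal share of that sum in percent. The endosomal share is 24.5 to 37.9% at 6 h and 57.9 to 59.5% at 72 h, with 48.0 to 51.0% in sham.

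Markers of several cell types moved at the same times. Ptprc, which encodes the pan-leukocyte protein CD45, was 5.42 to 6.83 CPM in sham, 9.43 to 29.2 CPM at 6 h, 20.02 to 48.4 CPM at 24 h and 83.6 to 95.5 CPM at 72 h, a log2 fold change of 1.47 ± 0.39, 2.24 ± 0.38 and 3.84 ± 0.40 (edgeR adjusted p = 0.0116, 0.000435 and 8.66e-07). The sum of the 7 neutrophil markers was 1.57 to 2.39 CPM in sham, 48.2 to 262 CPM at 6 h, 29.7 to 396 CPM at 24 h and 51.0 to 65.3 CPM at 72 h. These markers differed in course. Csf3r and Mmp9 averaged 23.6 and 9.24 CPM at 6 h and 24.8 and 18.3 CPM at 72 h. They made up most of the 72 h sum. Cxcr2, Il1r2, Trem1 and Mmp8 averaged 27.2, 19.4, 16.7 and 12.9 CPM at 6 h and 3.55, 3.34, 3.36 and 6.53 CPM at 72 h. Retnlg went from 21.6 CPM at 6 h to 0.282 CPM at 72 h, against 0.0864 CPM in sham. The sum of 8 monocyte and macrophage markers (Csf1r, Adgre1, Cd68, Ccr2, Ly6c2, Fcgr1, Itgam, C1qa) was 129 to 142 CPM in sham, 132 to 172 CPM at 6 h, 273 to 422 CPM at 24 h and 1180 to 1364 CPM at 72 h. C1qa and Csf1r, at 74.7 and 39.0 CPM on average in sham, made up most of that sum. Genes of the list moved both ways by 6 h. The means of Csf1r, Adgre1 and C1qa were lower than in sham, at 30.4, 7.2 and 69.65 CPM against 39.0, 9.88 and 74.7 CPM. Those of Cd68 and Fcgr1 were higher, at 10.4 and 5.86 CPM against 6.06 and 2.95 CPM. Ccr2 went from 2.13 to 9.0 CPM, Itgam, which neutrophils also express, from 2.01 to 16.8 CPM and Ly6c2 from 0.378 to 2.85 CPM, all called without overlap with sham (edgeR adjusted p = 0.000729, 0.00215 and 0.00465). The 5 resident macrophage markers summed to 68.5 to 81.6 CPM in sham and 163 to 198 CPM at 72 h, but moved apart. Mrc1 rose from 24.5 to 134 CPM and Folr2 from 3.87 to 13.2 CPM, Lyve1 fell from 27.9 to 13.2 CPM and Timd4 from 1.78 to 0.753 CPM, and Cd163, at 18.1 and 18.7 CPM, was not called. Of the 3 plasmacytoid dendritic cell markers, Siglech and Ccr9 had group means under 1 CPM throughout, while Bst2, also an interferon-induced gene of many cell types, rose from 32.4 to 114 CPM at 72 h. The 3 T cell markers summed to at most 1.75 CPM and the 4 B cell markers to at most 6.94 CPM in any library. The 4 fibroblast markers (Pdgfra, Dcn, Col1a1, Lum) summed to 444 to 611 CPM at 6 h and 24 h and to 3911 to 5057 CPM at 72 h. Col1a1 made up most of the 72 h sum, at 3549 CPM on average against 74.4 CPM in sham. From sham to 72 h Lum went from 42.9 to 194 CPM, Pdgfra from 40.1 to 79.3 CPM and Dcn from 412 to 514 CPM. Dcn was lower at 24 h, at 237.5 CPM. The 5 cardiomyocyte markers summed to 12850 to 16720 CPM at 72 h, and mitochondrial genes held 8.41 to 10.5% of counts there against 23.8 to 26.1% in sham. The part of these cell types in the receptor results was not tested.

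Set against Ptprc read for read, the 10 genes divided. Tlr7 gave 0.269 ± 0.088 reads per Ptprc read (SD, n = 3) in sham and 0.261 ± 0.009 at 72 h, and Tlr1 0.170 ± 0.039 and 0.176 ± 0.012. Tlr13 gave 0.281 ± 0.058 in sham, 0.557 ± 0.140 at 24 h and 0.481 ± 0.007 at 72 h. Only for Tlr13 did every 72 h library exceed every sham library. Cd14 gave 1.08 ± 0.16 in sham, 3.91 ± 1.6 at 6 h, from 2.58 to 5.68, and 0.489 ± 0.038 at 72 h. Its 6 h libraries were all above, and its 72 h libraries all below, the sham range of 0.919 to 1.23. Tlr4 went from 1.26 ± 0.37 to 0.289 ± 0.022, Tlr2 from 0.514 ± 0.038 to 0.250 ± 0.007 and Tlr3 from 1.38 ± 0.35 to 0.130 ± 0.005, without overlap between sham and 72 h. From sham to 72 h Tlr8 went from 0.119 ± 0.082 to 0.169 ± 0.023 and Tlr9 from 0.107 ± 0.032 to 0.127 ± 0.011. Tlr6 went from 0.076 ± 0.055 to 0.058 ± 0.003. For Tlr6, Tlr8 and Tlr9 the 72 h libraries overlapped with sham.

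**Figure D4:**
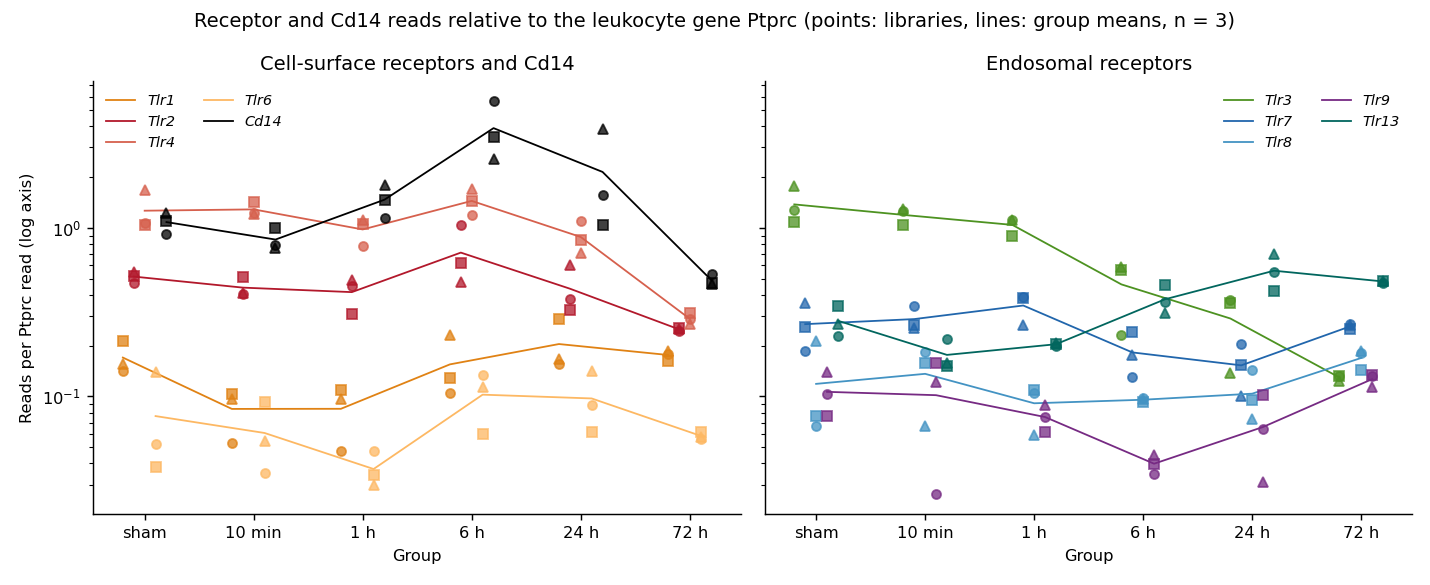
Reads of each gene per Ptprc read (log axis) in each library, with lines through group means. Circles, squares and triangles are replicates 1, 2 and 3. Cd14 lies at 2.58 to 5.68 at 6 h, and Tlr3 goes from 1.08 to 1.77 in sham to 0.124 to 0.133 at 72 h.

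For each of the 10, the most similar of 11705 other genes averaging 50 counts or more were found, by the root mean square difference of log2 CPM from each gene's own sham mean over the 18 libraries. Small values mean like courses. Tlr4 was nearest to Syk, a kinase of immune receptor signalling, and Baz1a (both 0.20), and Tlr3 to Sdccag8 (0.16) and Serinc5 (0.17). Tlr13 was nearest to AB124611 (0.28) and Rab32 (0.36), Tlr7 to the integrin gene Itga4 (0.35) and the myeloid transcription factor gene Cebpa (0.36), and Tlr2 to Slfn2 (0.37) and Lmnb1 (0.38). Tlr6 was nearest to the cannabinoid receptor gene Cnr2 (0.37) and Slc11a1 (0.40), Tlr9 to Ly86 (0.39) and Ncapg2 (0.43), and Tlr8 to Hpse (0.41) and Ms4a6c (0.42), while Btk, a kinase of immune receptor signalling, was close to Tlr1 (0.45). Close to Cd14 was the inflammasome gene Nlrp3 (0.54), a larger difference than for the genes named beside the receptors. Nlrp3 averaged 7.27, 10.5 and 5.36 CPM at 6 h, 24 h and 72 h.

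The genes around the receptors were read from lists of endogenous ligands, co-receptors and chaperones, adaptors and kinases, and inhibitors. Of all genes tested, 28.4%, 43.8% and 66.4% were called at 6 h, 24 h and 72 h, and 16.3%, 23.7% and 34.2% were called higher, and the counts below stand beside these shares. No gene of these lists was called against sham at 10 min or 1 h by edgeR. At an unadjusted p under 0.05 there were 0 at 10 min and 1, an inhibitor, at 1 h, where DESeq2 also called 1 inhibitor.

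Of 9 genes for endogenous ligands, molecules of injured tissue known to act on TLR2 or TLR4, 5 were called higher at 6 h, 6 at 24 h and 7 at 72 h, with 1 lower at 72 h (Hspd1), where 34.2% of all genes were called higher. The list's median log2 fold change was 0.67, 2.42 and 3.10. Without sham replicate 3 the count of 8 at 72 h was 5, where all genes called were 10179 against 10831 with all libraries. At 6 h the genes called were S100a8, S100a9, Tnc, Vcan and Hspa8. S100a8 and S100a9 encode alarmins that are major proteins of neutrophils. S100a8 was 0.455, 0.778 and 0.489 CPM in sham, 250, 97.0 and 30.5 CPM at 6 h, 48.9, 9.69 and 208 CPM at 24 h, and 8.52, 11.2 and 10.3 CPM at 72 h. Its highest libraries at 6 h and 24 h were those with the highest neutrophil marker sums and the highest Cd14 and Tlr2. S100a8 was 7.77 ± 1.35 above sham at 6 h and 4.12 ± 1.39 at 72 h (log2 ± SE, edgeR adjusted p = 0.00113 and 0.0191), and S100a9 7.32 ± 1.32 and 3.49 ± 1.31 (edgeR adjusted p = 0.00142 and 0.0311). Without 6 h replicate 1 the 6 h values were 6.80 ± 1.29 and 6.28 ± 1.25, both still called. The 72 h calls were lost without sham replicate 1 or 3 for both genes, and for S100a9 also without sham replicate 2 or 72 h replicate 2 or 3. Tnc, encoding the matrix protein tenascin-C, was 0.859, 0.519 and 0.622 CPM in sham and 75.4, 20.1 and 14.4 CPM at 6 h. It was 5.76 ± 0.68 above sham at 6 h and 8.80 ± 0.70 at 72 h (edgeR adjusted p = 6.86e-05 and 1.09e-07). Without 6 h replicate 1 the 6 h value was 4.69 ± 0.33 (edgeR adjusted p = 4.99e-07). Bgn and Fn1, encoding biglycan and fibronectin, were not called at 6 h and were 2.80 ± 0.14 and 4.86 ± 0.39 above sham at 72 h (edgeR adjusted p = 1.53e-11 and 5.07e-08). The fibroblast marker sum, given above and mostly Col1a1 at 72 h, was likewise highest at that time, and its part in these values was not tested.

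Of 9 co-receptors and chaperones, 3 were called higher and 1 lower at 6 h, 6 higher at 24 h, and 8 higher and 1 lower (Cd36) at 72 h, beside the 28.4%, 43.8% and 66.4% of all genes called. The list's median log2 fold change was -0.05, 0.53 and 1.05. Unc93b1, which carries the nucleic acid receptors to endosomes, was 23.1, 25.1 and 28.9 CPM in sham, 17.5, 13.4 and 14.8 CPM at 6 h, 31.0, 37.2 and 43.3 CPM at 24 h, and 166, 135 and 187 CPM at 72 h. It fell before it rose, by 0.76 ± 0.15 on the log2 scale at 6 h (edgeR adjusted p = 0.00139), and was 2.66 ± 0.15 above sham at 72 h (edgeR adjusted p = 9.76e-11). Cd180 and Ly86, which encode the TLR4-like surface protein RP105 and its partner MD-1, were not called at 6 h and were 5.49 ± 0.27 and 4.05 ± 0.21 above sham at 72 h (edgeR adjusted p = 1.33e-11 and 2.38e-11). Ly96, encoding the TLR4 partner MD-2, was called at 72 h only, at 0.97 ± 0.25 (edgeR adjusted p = 0.00206), from 1.57, 1.87 and 2.31 CPM in sham to 3.25, 3.65 and 4.39 CPM. Lbp, encoding the protein that loads lipopolysaccharide onto CD14, was 1.35 ± 0.21 above sham at 6 h (edgeR adjusted p = 0.000157), fell by 1.67 ± 0.21 from 6 h to 24 h (edgeR adjusted p = 3.82e-05), and was 0.69 ± 0.21 above sham at 72 h (edgeR adjusted p = 0.00689).

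Of 22 adaptors and kinases, 9 were called higher and 1 lower at 6 h, 11 higher and 1 lower at 24 h, and 14 higher and 5 lower at 72 h, with a median log2 fold change of 0.18, 0.42 and 0.53. At 24 h 43.8% and at 72 h 66.4% of all genes were called. With library totals the split at 72 h was 18 higher and 0 lower, and at 24 h 16 and 0. The 6 h count of 10 was 2 without 6 h replicate 1 or sham replicate 1, 5 or 4 without sham replicate 2 or 3, and 6 without both libraries that stood apart. All genes called at 6 h fell in the same refits, as given above. Myd88, the adaptor shared by all these receptors but TLR3, was 9.66, 9.34 and 10.5 CPM in sham and 34.6, 26.3 and 29.7 CPM at 6 h. Like Tlr4 it reached its level at 6 h, 1.62 ± 0.19 above sham (log2 ± SE, edgeR adjusted p = 1.31e-05), and was 1.56 ± 0.19 above sham at 72 h (edgeR adjusted p = 7.52e-07). Ticam1, encoding TRIF, the adaptor of TLR3 and TLR4, was 0.40 ± 0.13 above sham at 6 h and 0.67 ± 0.13 at 72 h (edgeR adjusted p = 0.0325 and 0.000209). Ticam2, encoding the TLR4 bridging adaptor TRAM, was not called at 6 h and was 3.40 ± 0.35 above sham at 72 h (edgeR adjusted p = 1.15e-07). The kinase gene Irak4 was 0.49 ± 0.17 and 1.63 ± 0.16 above sham at the same times (edgeR adjusted p = 0.0334 and 7.59e-08). The 6 h calls of Ticam1 and Irak4 were lost with library totals, without any one of the 3 sham libraries and without 6 h replicate 1, and also without 6 h replicate 3 for Ticam1 and 6 h replicate 2 for Irak4.

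Of 11 inhibitors of the pathway, 10 were tested, Sarm1 being too low. At 6 h 4 were called higher and 1 lower (Sigirr), at 24 h 4 and 1, and at 72 h 3 and 3, with a median log2 fold change of 0.59, 0.49 and 0.05. The counts at 24 h and 72 h, 5 and 6 of 10, lie near the 43.8% and 66.4% of all genes called. With library totals the split was 6 and 0 at 24 h and at 72 h. The count of 5 at 6 h was 3 without 6 h replicate 1 or sham replicate 1, and that of 5 at 24 h was 2 without 24 h replicate 3 or sham replicate 1 or 3. In these 24 h refits all genes called were 5466, 5915 and 6083, against 7149 with all libraries. Irak3, encoding the inhibitory kinase-like protein IRAK-M, was 1.19 ± 0.29 above sham at 6 h (edgeR adjusted p = 0.00579) and was not called at 24 h or 72 h (0.57 ± 0.29 and 0.60 ± 0.29, edgeR adjusted p = 0.122 and 0.072). At 24 h it was -0.07 ± 0.17 without replicate 3 and was called without replicate 1 or 2 (edgeR adjusted p = 0.0273 and 0.029). At 72 h it was called with library totals (1.19 ± 0.28, edgeR adjusted p = 0.00117), by DESeq2 (adjusted p = 0.0481) and without any one of the 24 h libraries. The leukocyte phosphatase gene Ptpn6 was 1.05 ± 0.31 above sham at 6 h and 3.55 ± 0.31 at 72 h (edgeR adjusted p = 0.0201 and 9.27e-08), and its 6 h call was lost without 6 h replicate 1 or sham replicate 1 or 2. Tollip and the deubiquitinase gene Otud4 fell by 0.67 ± 0.09 and 0.64 ± 0.10 on the log2 scale at 72 h (edgeR adjusted p = 4.18e-06 and 1.6e-05) with TMM factors. With library totals they stood at -0.08 ± 0.10 and -0.05 ± 0.11 and were not called (edgeR adjusted p = 0.455 and 0.686), where the median of all genes was 0.61. Of the remaining mouse receptors Tlr5, Tlr11 and Tlr12, only Tlr5, the flagellin receptor, was high enough to test, and it was called at 72 h, 1.38 ± 0.43 above sham (log2 ± SE, edgeR adjusted p = 0.00853).

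**Figure D5:**
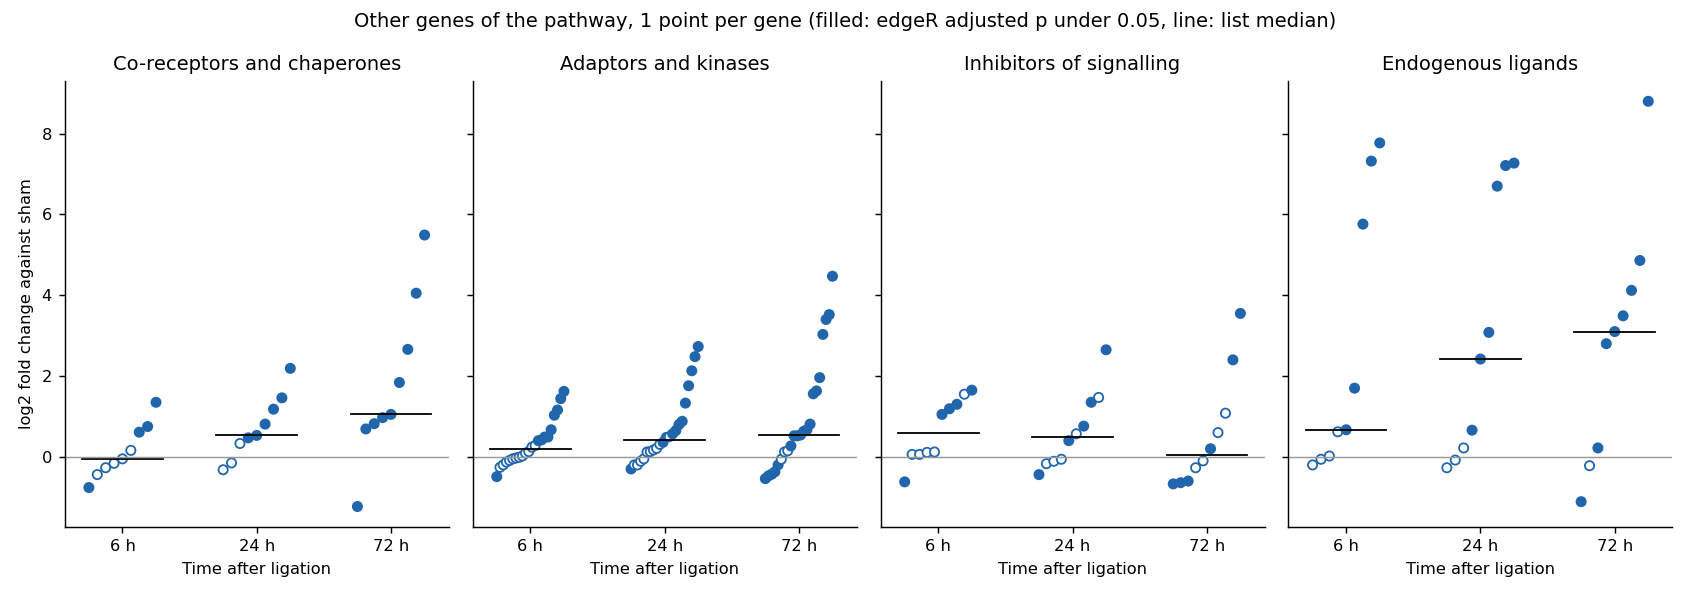
Log2 fold change against sham of each tested gene of the 4 lists at 6 h, 24 h and 72 h. Filled points were called and lines are list medians. The ligand median goes from 0.67 to 3.10, while the inhibitor median goes from 0.59 to 0.05.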

How the data were processed

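Whole-tissue poly(A) RNA-seq was used. Per the submitters' processing notes, the tools named are cutadapt 1.18, HISAT2 2.1.0 and featureCounts, with the build mm10. The annotation, the counting settings and the use of strand are not given in the sources used here. The authors deposited a read count and an FPKM value per gene for each library. The deposited FPKM columns of 6 h replicates 2 and 3 held each other's counts. FPKM was used for transcript lengths and as an alternative. Counts were tested with edgeR 4.0.16 (filterByExpr, TMM, robust quasi-likelihood fit, 1 mean per group, all 18 libraries, two-sided, Benjamini-Hochberg over the 16311 genes kept, 14272 removed), called under 0.05. Each SE beside an edgeR log2 fold change was derived from the test, as the absolute log2 fold change divided by the square root of the F statistic. The labels give no test. R was 4.3.3, limma 3.58.1 and DESeq2 1.42.0. GENCODE M21 (GRCm38) gave positions for 30489 of 30583 gene IDs. All 10 genes were described. Of each list were named the 3 genes with the smallest F test adjusted p, plus Ly96, Lbp, Unc93b1, Myd88, Ticam1, Irak3, S100a8 and S100a9, and for each receptor the 2 genes of most similar course, leaving out predicted genes (Gm and Rik symbols). Of these similar genes, 2 are not reported here. Sigirr, Hspd1, Cd36, Vcan and Hspa8 were named after their values were seen. The members and lists were chosen with earlier results of these data known. The scripts were tested on simulated data. Alternatives were other scalings, filters, tools, pseudocounts, a replicate block, and leaving out libraries.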

Additional observations from a re-analysis of the deposited data

Results flagged for a closer look

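The pathway gene Unc93b1 moved in opposite directions at different times. Its log2 fold change against sham was -0.76 at 6 h and 0.53 at 24 h, both called, and the difference between the times, 1.29, was called as well (edgeR adjusted p = 2.08e-05). Between 6 h and 72 h, where it was 2.66 above sham, the difference was 3.42 (edgeR adjusted p = 7.35e-12). Cd36, which encodes a scavenger receptor that works with TLR2 and TLR6 and carries fatty acids in heart muscle, went the other way. It was 0.61 above sham at 6 h and -1.23 at 72 h, a difference of -1.84 (edgeR adjusted p = 1.21e-08).

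Genes of atrial muscle appeared in 1 library of ventricular tissue, replicate 1 of the 6 h group. Myl7 was 49.3 CPM there against at most 1.10 CPM in any other library, Sln 42.6 CPM against at most 0.474 CPM, and Myl4 59.1 CPM against at most 2.62 CPM. The same library held the highest 6 h value of every receptor studied but Tlr3, and of Cd14, and the part of atrial tissue in those values was not tested.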

How the results depend on the processing

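Counts are genes called by edgeR unless another tool is named. Of the 10 genes, against sham, 1 was called at 1 h with only the 6 libraries compared, and at 6 h 4 with only those 6 and 2 by limma on log2(FPKM + 1), against 7. With at least 10 counts in every library 6 of the 10 were tested, and 5 were called at 24 h, 6 at 72 h, 1 from 6 h to 24 h and 3 from 24 h to 72 h. All genes called with that filter numbered 6256, 9016, 4227 and 7037, against 7149, 10831, 4541 and 8231 otherwise. With only 6 libraries 1 was called from 10 min to 1 h and 0 from 6 h to 24 h. All genes called with only 6 libraries numbered 244 and 1024 over these steps, against 50 and 4541 with all 18. At 6 h against sham they were 4103 with only 6 libraries and 4123 by limma on log2(FPKM + 1), against 4639. From 1 h to 6 h 2 were called without the filter and 2 by limma on log2(FPKM + 1), against 6. All genes called there were 3409 and 3323, against 4003. From 6 h to 24 h 5 were called with library totals and 5 by limma with either pseudocount (1 or 0.1), against 3. All genes called there also rose, to 6880 with library totals and to 6475 and 6757 by limma, against 4541. Leaving out 1 library at a time gave 2 to 8 at 6 h against sham, 8 to 9 at 24 h, 9 to 10 at 72 h, 2 to 7 from 1 h to 6 h, 1 to 5 from 6 h to 24 h and 5 to 8 from 24 h to 72 h. Cd14 from 24 h to 72 h reversed from -0.85 to 0.69 without both libraries that stood apart, an alternative chosen after seeing the data, as were those for single list genes and receptor sums.

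In the lists against sham, with only 6 libraries 2 ligands and 2 inhibitors were called at 1 h and 2 inhibitors at 24 h. All genes called with only 6 libraries were 190 at 1 h and 5509 at 24 h, against 48 and 7149. At 1 h 1 inhibitor was called by DESeq2, 1 by limma on log2(FPKM + 0.1) and 2 without both libraries. All genes called at 1 h were 95, 58 and 108 in these settings, against 48. At 6 h adaptors and kinases numbered 5 with library totals, 3 and 5 by limma with pseudocounts 1 and 0.1, and 6 without both libraries, against 10. All genes called there were 4716, 4123, 4664 and 3921, against 4639. At 6 h 3 ligands were called with the 10-count filter and 3 inhibitors without a filter. In these settings 4168 and 4015 of all genes were called at 6 h, against 4639. How many ligands the 10-count filter kept is not given here. Inhibitors at 24 h numbered 3 without a filter and 2 without both libraries, against 5, where all genes called were 6505 and 5916, against 7149. Leaving out 1 library gave 2 to 11 adaptors and kinases at 6 h, inhibitors of 0 to 1 at 1 h, 3 to 6 at 6 h and 2 to 7 at 24 h, and 5 to 8 ligands at 72 h. The causes were not tested.

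Replicate numbers name no shared animal, and deviations of same-numbered libraries correlated at -0.26 to 0.25, with 6 of 18 libraries closest to their own number. With the replicate block, 3 calls were lost, Tlr6 at 6 h against sham (2.07, adjusted p = 0.0533), Tlr2 from 1 h to 6 h (1.94, adjusted p = 0.0693) and Tlr13 from 6 h to 24 h (1.36, adjusted p = 0.0666), and inhibitors at 24 h numbered 3 against 5. Library totals moved the median of all genes to -0.12, 0.20 and 0.61 at 6 h, 24 h and 72 h. All genes called at 10 min ranged from 2 by limma on log2(FPKM + 1) to 360 with only 6 libraries, against 12, and at 1 h reached 190, against 48. The number of mice limits precision, and in sham Tlr1, Tlr6, Tlr8 and Tlr9 rest on 5 to 28 counts a library.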

Other observations

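Among pairs of the 10 genes, the most alike courses over the 18 libraries, by the root mean square difference of log2 CPM from each gene's own sham mean, were those of Tlr2 and Tlr6 (0.55), Tlr7 and Tlr8 (0.56) and Tlr2 and Tlr4 (0.61). TLR2 and TLR6 are partners in 1 receptor, and Tlr7 and Tlr8 are neighbours on the X chromosome. The least alike were Tlr3 and Tlr13, at 2.36, followed by Tlr3 and Cd14, at 2.26. These values share libraries and carry no test.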
